A study of Mus musculus with 4 samples.

Results

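A set of 10 genes that mark late neutrophils, the circulating granulocytes that have finished making their granules, was followed in the spleens of wild-type (WT) and Snd1 knockout (KO) mice. The 10 genes were chosen by gene symbol and comprise the receptors Csf3r, Cxcr2, Il1r2, Fpr1, Fpr2, Trem1 and Clec4d and the products Il1b, Retnlg and Stfa2l1. The array carried 14 probes for 8 of these genes among 25697 probes in all. Stfa2l1 and Fpr1 had no probe under their symbol, gene identifier or accession and were not analysed here.

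Each group held 2 female mice of the C57BL/6N strain aged 8 to 12 weeks, and 1 bead array (Illumina MouseRef-8 v2.0), on which each probe sits on many beads, was used per spleen RNA. The WT mice carried intact Snd1, which encodes an RNA-binding protein. The KO mice lacked its first exon in every tissue, after a CAG-Cre transgene, which is active throughout the body, had deleted it in the germline of a line made from embryonic stem cells of another strain and backcrossed to C57BL/6N. No treatment is named in the labels. The comparison asked what loss of Snd1 does to gene expression in the spleen, here in the neutrophils that the organ holds.

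Neutrophils mature in the marrow, where granulocyte colony-stimulating factor (G-CSF) acts through its receptor, the product of Csf3r, and mature cells leave when chemokines engage CXCR2. In tissue they sense bacterial formyl peptides through the FPR receptors, and TREM-1 and the lectin CLEC4D add to the response through adaptor proteins. Mature neutrophils no longer transcribe most granule genes but make interleukin-1β, and they carry the decoy receptor IL1R2, which binds that cytokine without signalling. C/EBP factors and PU.1 are well-known regulators of genes in this lineage.

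The stretches of promoter that match the C/EBP consensus are shown for the 2 genes whose WT and KO values did not overlap on a probe detected on all arrays, Retnlg and Fpr2, and for Il1b and Trem1, which hold the same 8 letters. The promoters came from RefSeq in build GRCm38.p6, matched all 10 genes by symbol and covered 250 bases before to 50 after the transcript start that RefSeq's promoter table uses for each gene. That start is the outer end of the gene for Retnlg and Fpr2 but lies 25 bases inside it for Il1b and 26 for Trem1, so that the end of the Trem1 stretch falls within the gene's outer coordinates. For Csf3r and Il1r2, whose promoters are counted below but not shown, the start lies 1218 and 1401 bases inside the gene. The consensus searched was TTNNGNAA on both strands, and its match is in capitals.
Retnlg, 246 bases before the start: agctTTCTGCAAggcattccaggcac
Fpr2, 146 bases before the start: cacacaactTTAAGAAAaatgtccat
Fpr2, 66 bases before the start: ctgggaatcTTAGGAAAccaagagtt
Il1b, 91 bases before the start: tcagttttgTTGTGAAAtcagttaac
Trem1, 35 bases before the start: cacatcctgTTGTGAAActttccaga
These windows lie on the strand of each gene, at chr16:48872358-48872383 for Retnlg (plus strand), chr17:17887669-17887694 and chr17:17887749-17887774 for Fpr2 (plus), chr2:129371214-129371239 for Il1b (minus) and chr17:48232695-48232720 for Trem1 (plus).

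The consensus TTNNGNAA occurred in 7 of the 10 promoters, and in 40.7% of all 32851 promoters in the same table. The PU.1 core GAGGAA occurred in 6 of the 10 promoters, and in 28.3% of all. The 8 letters TTGTGAAA, one form of the C/EBP consensus and so overlapping with it, stood in the promoters of Il1b and Trem1 and in 1.17% of all, and were picked after the matches had been seen. A match is a description of the letters only. Of the genes shown, Retnlg was lower in KO and held 1 match, while Fpr2 was higher and held 3, of which the match nearest to the start is not shown. Clec4d, which is not shown, also held 3 matches, and its KO minus WT difference was -0.10 (log2).

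The arrays were of like quality. Between 12396 and 12908 probes were above background on an array and the median signal lay between 112.0 and 114.0. The B cell gene Cd79b (12.68 to 13.20, normalized log2 intensity), the T cell gene Cd3d (10.26 to 11.00) and the red pulp macrophage gene Slc40a1 (13.47 to 13.85) were high on all 4 arrays. Other genes of these lists were dim. The B cell gene Pax5 lay at 5.10 to 5.59, and the macrophage gene Cd5l was not above background on any array. Snd1, the targeted gene, gave 6.71 and 7.09 on WT replicates 1 and 2 and 4.45 and 4.58 on KO replicates 1 and 2. It was not above background in KO, although its probe may lie outside the deleted exon. Its KO minus WT difference was -2.39 ± 0.19 (log2, SE), with a limma adjusted p of 0.0869. Ly6g, which defines neutrophils in mouse, was not analysed here for want of a probe under that symbol. Some genes foreign to spleen were brighter in KO. Of 8 liver genes, 6 were above background on both KO arrays and entered the test only through them, with a summed linear level of 152 to 163 in WT and 675 to 928 in KO, while Alb and Fgb were not above background on any array. Adipocyte genes, 3 of 6 tested, summed to 972 to 1081 in WT and 1783 to 2766 in KO. Of these, Lpl was bright in WT too, at 10.01 and 9.85 against 10.71 and 10.62 in KO, so that the sums are not of foreign genes alone. Fabp4 and Plin1, of the same list, were not above background on any array. Adipoq and Ces1d were not above background on either WT array and entered the test only through KO. On KO replicates 1 and 2, Adipoq gave 5.18 and 9.69 and Ces1d 6.17 and 8.54. Exocrine pancreas genes, 2 of 8 tested, summed to 282 to 400 in WT, 1068 on KO replicate 1 and 239 on KO replicate 2. Cela2a, Amy2a5, Cel and Ctrb1 were above background on KO replicate 1 alone, and Prss2 on no array. The part of these liver, adipocyte and pancreas genes in the results below was not tested.

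A total of 9 probes, for 6 of the genes, entered the test, being above background on both arrays of at least 1 group. None of the 9 probes passed at an adjusted p under 0.05, where 0.016% of all 12493 tested probes did (limma, Benjamini-Hochberg over all tested probes, 2 higher and 0 lower). At an unadjusted p under 0.05 there were 2, Retnlg and Fpr2, where 6.09% of all tested probes passed. By gene, using the brightest probe of each, 3 had a higher and 3 a lower mean in KO, and the median difference was 0.09 on the log2 scale, beside 0.00 over all 8716 tested genes. In whole spleen, fewer neutrophils and less RNA per neutrophil cannot be told apart. The targeted gene Snd1, at -2.39 (log2), also missed the adjusted threshold, with a limma adjusted p of 0.0869. Missing that threshold here therefore does not show that a gene is unchanged.

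**Figure D1:**
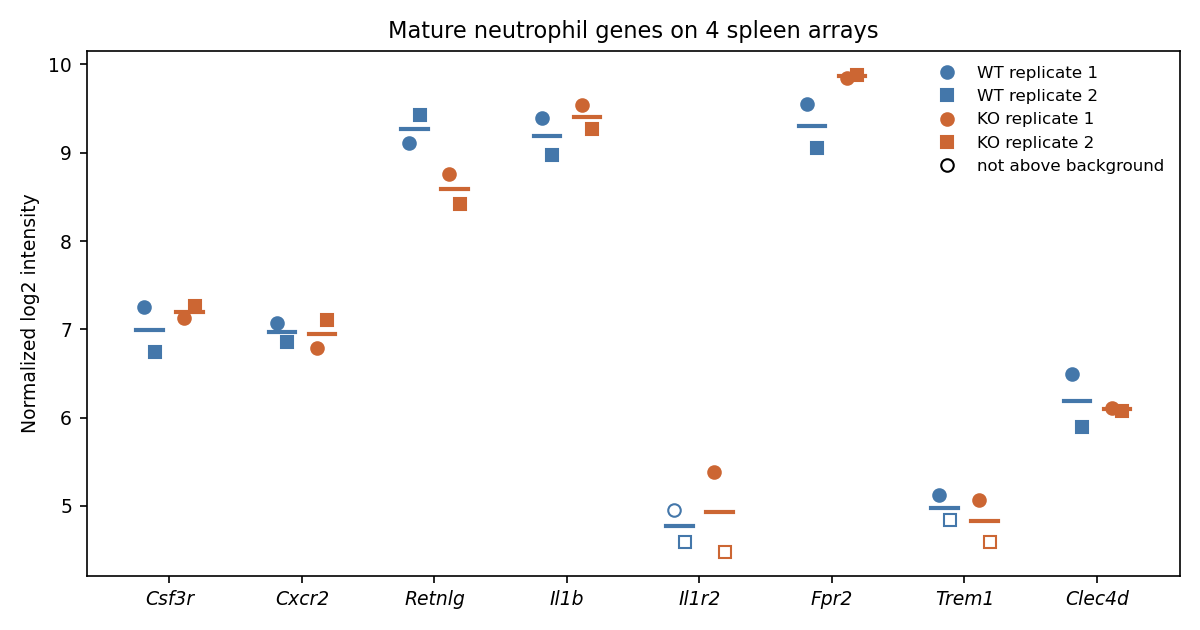
Normalized log2 intensity (vertical axis) of the brightest probe of each of the 8 genes on the array. Circles are replicate 1 and squares replicate 2, blue is WT and orange KO, bars are group means and open symbols are values not above background. The Retnlg values of KO lie below those of WT, the Fpr2 values of KO lie above, and the groups of the other 6 genes overlap.

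Retnlg, which encodes the secreted resistin-like molecule gamma (chr16:48872608-48874498, GRCm38.p6), was lower in KO. Its probe gave 9.11 and 9.42 on the WT arrays and 8.75 and 8.42 on the KO arrays, from deposited signals of 621, 740, 516 and 444. Both KO values were below both WT values, and KO replicate 2 was the lowest. The WT mean was 9.27 ± 0.22 and the KO mean 8.59 ± 0.23 (log2, SD, n = 2), a difference of -0.68 ± 0.20 (SE) or 1.60-fold. The 95% interval was -1.18 to -0.17, the unadjusted limma p was 0.0187 and the adjusted p 0.771. With any 1 array left out it stayed between -0.84 and -0.51.

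Fpr2, a formyl peptide receptor of phagocytes (chr17:17887824-17893952), was higher in KO. Its probe gave 9.55 and 9.05 in WT and 9.84 and 9.89 in KO, from signals of 812, 592, 1004 and 1079. The KO arrays agreed to within 0.04 and both lay above WT replicate 1, while WT replicate 2 was the lowest. The WT mean was 9.30 ± 0.35 and the KO mean 9.86 ± 0.03 (log2, SD, n = 2), a difference of 0.56 ± 0.21 (SE) or 1.48-fold. The 95% interval was 0.03 to 1.10, the unadjusted limma p 0.0415 and the adjusted p 0.771. The difference was 0.32 without WT replicate 2 and 0.81 without WT replicate 1.

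Retnlg and Fpr2 thus stood apart in opposite directions. Across all tested probes, the WT and KO values did not overlap with KO higher for 19.4% and with KO lower for 18.5%. Among the 9 probes, 2 were higher in this way (Fpr2 and 1 dim Csf3r probe described next) and 1 was lower (Retnlg).

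Csf3r, the G-CSF receptor gene (chr4:126023441-126044975), had 5 probes, numbered here from bright to dim. Probe 1 gave 7.26 and 6.74 in WT and 7.13 and 7.26 in KO. Probe 2 gave 6.82 and 5.97 in WT and 6.61 and 6.69 in KO. On both, WT replicate 2 was the lowest array, the groups overlapped, and KO minus WT was 0.20 ± 0.22 and 0.25 ± 0.30 (log2, SE), with limma adjusted p of 0.888 and 0.899. The other 3 probes were near background. Probe 3 gave 5.31 and 4.85 in WT and 5.76 and 5.36 in KO, and probe 4 gave 5.09 and 4.74 in WT and 5.31 and 4.99 in KO. Each was not above background on WT replicate 2 and entered the test only through the KO arrays, so that a higher KO mean was favoured by the filter itself. Their differences were 0.48 ± 0.23 and 0.23 ± 0.20. Probe 5 was not above background on any array, at 4.43 to 4.58. All 4 tested probes thus read the same 4 RNA samples with a positive difference smaller than or close to the gap between the WT arrays, which was 0.35 to 0.85. Without WT replicate 2, probes 1 and 2 gave -0.06 and -0.17.

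**Figure D2:**
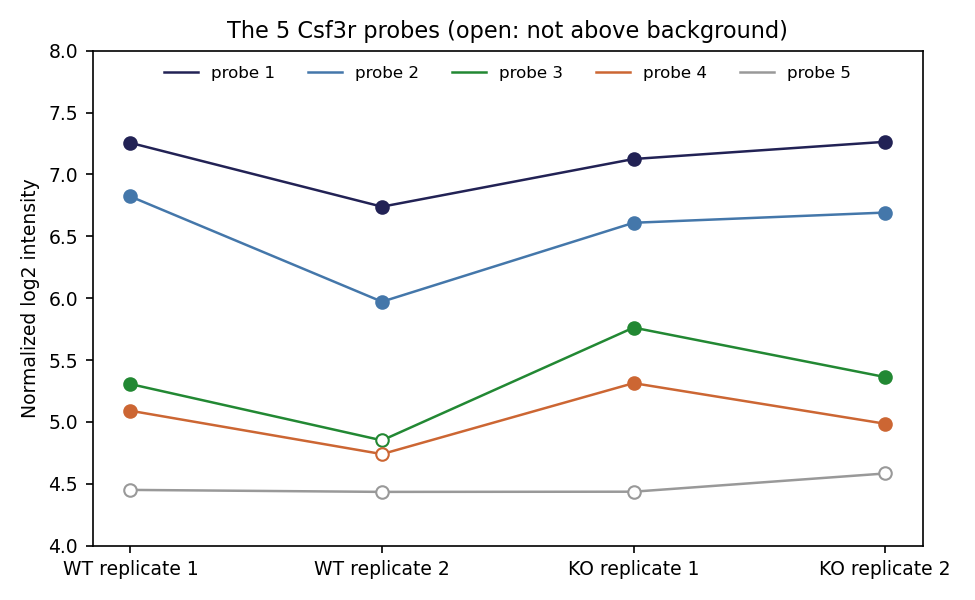
Normalized log2 intensity (vertical axis) of the 5 Csf3r probes on the 4 arrays (horizontal axis), with a line joining the values of 1 probe. Open circles are values not above background, and WT replicate 2 is the lowest array for probes 1 to 4.

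Cxcr2, the receptor for the chemokines that call neutrophils out of marrow (chr1:74153994-74161246), had KO values on both sides of the WT values. Its brighter probe gave 7.08 and 6.86 in WT and 6.79 and 7.10 in KO, the KO arrays being the lowest and the highest. KO minus WT was -0.03 ± 0.18 (log2, SE), with a 95% interval of -0.49 to 0.44 and a limma adjusted p of 0.985. The sign turned, to 0.03, when arrays were scaled to a common median instead. The second Cxcr2 probe was not above background on any array, at 4.35 to 4.42.

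Il1b, the gene of the inflammatory cytokine interleukin-1β (chr2:129364569-129371164), gave 9.39 and 8.98 in WT and 9.54 and 9.27 in KO. WT replicate 2 was again the lowest array and the groups overlapped. KO minus WT was 0.22 ± 0.21 (log2, SE), with a 95% interval of -0.31 to 0.75 and a limma adjusted p of 0.853. Without WT replicate 2 it was 0.01 and without WT replicate 1 it was 0.43.

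Il1r2, the decoy receptor gene (chr1:40084692-40125230), was too dim to be tested. Its values were 4.95 and 4.59 in WT and 5.38 and 4.48 in KO, and only KO replicate 1 was above background. The array with the highest value and the array with the lowest were thus both KO.

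Trem1, which encodes a receptor that amplifies inflammatory signals (chr17:48232713-48246927), was also too dim. Its brighter probe gave 5.13 and 4.84 in WT and 5.07 and 4.59 in KO, above background on replicate 1 of each group. Its second probe gave 4.51, 4.70, 4.58 and 4.57 on the same arrays and was not above background on any. No change in Trem1 or Il1r2 was detectable at these signals.

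Clec4d, the gene of a C-type lectin that binds mycobacterial glycolipid (chr6:123262107-123275268), gave 6.49 and 5.90 in WT and 6.11 and 6.08 in KO. The KO arrays lay between the WT arrays. KO minus WT was -0.10 ± 0.23 (log2, SE), with a 95% interval of -0.69 to 0.49 and a limma adjusted p of 0.947. Without WT replicate 1 it was 0.20.

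**Figure D3:**
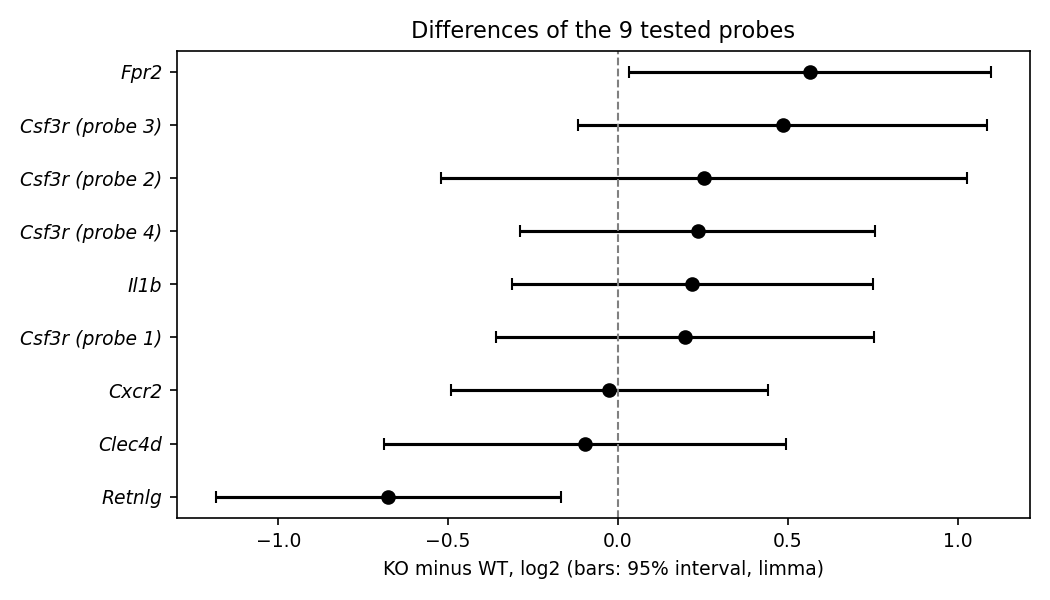
KO minus WT on the log2 scale (horizontal axis) for the 9 tested probes, with 95% intervals from limma that are not adjusted for the number of probes. The intervals of Fpr2 and Retnlg do not include 0, and those of the other 7 probes do.

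The WT arrays differed from each other over these genes. Of the 6 tested genes, 5 were higher on WT replicate 1 than on WT replicate 2, with Retnlg the exception, and the median gap was 0.46 on the log2 scale, beside -0.06 over all tested genes. The KO arrays were closer, with 3 genes higher on KO replicate 1 and 3 on KO replicate 2. Their median gap of 0.00 came from gaps of both signs. KO replicate 1 minus KO replicate 2 was 0.33 for Retnlg, 0.26 for Il1b and 0.04 for Clec4d. It was -0.31 for Cxcr2, -0.14 for Csf3r and -0.04 for Fpr2. Taking out WT replicate 1 raised the median KO minus WT difference of the 6 genes from 0.09 to 0.31, and taking out WT replicate 2 brought it to -0.10. These differences among the WT mice were as large as most of the differences between the groups.

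Neutrophil granule genes gave other values on the same arrays. All 8 tested genes of a list named for the azurophil granule, which is made in neutrophil precursors, had lower means in KO (median -1.11). Of these, Ms4a3 and Fcnb entered the test only through the WT arrays. All 7 tested genes of the secondary and tertiary granule list also had lower means (median -1.56). The falls were not uniform, since Cst7 of the first list (-0.08) and Lyz2 of the second (-0.09) had overlapping groups. KO replicate 2 was below KO replicate 1 for 7 of the 8 and for 7 of the 7, with median gaps between the KO arrays of 1.06 and 1.51. Against the WT mean, the median of the 6 late genes was 0.02 on KO replicate 1 and 0.11 on KO replicate 2, while the azurophil median was -0.71 and -1.55. The difference between the lists was not tested. The cytosolic proteins S100a8 and S100a9, abundant in neutrophils of all later stages, were lower in KO at -0.95 ± 0.32 and -0.70 ± 0.27 (log2, SE, limma adjusted p of 0.771 each), and both were lowest on KO replicate 2, as Retnlg was. S100a8 gave 12.95 and 12.75 in WT and 12.34 and 11.45 in KO. They belong to a list of neutrophil surface and cytosol genes of which 5 of 10 were tested, 1 higher and 4 lower in mean. The higher one, the protease inhibitor gene Slpi, gave 10.77 and 10.51 in WT and 11.72 and 11.59 in KO (1.01 ± 0.16, limma adjusted p of 0.771), and Mmp9 was at -0.03 ± 0.22.

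**Figure D4:**
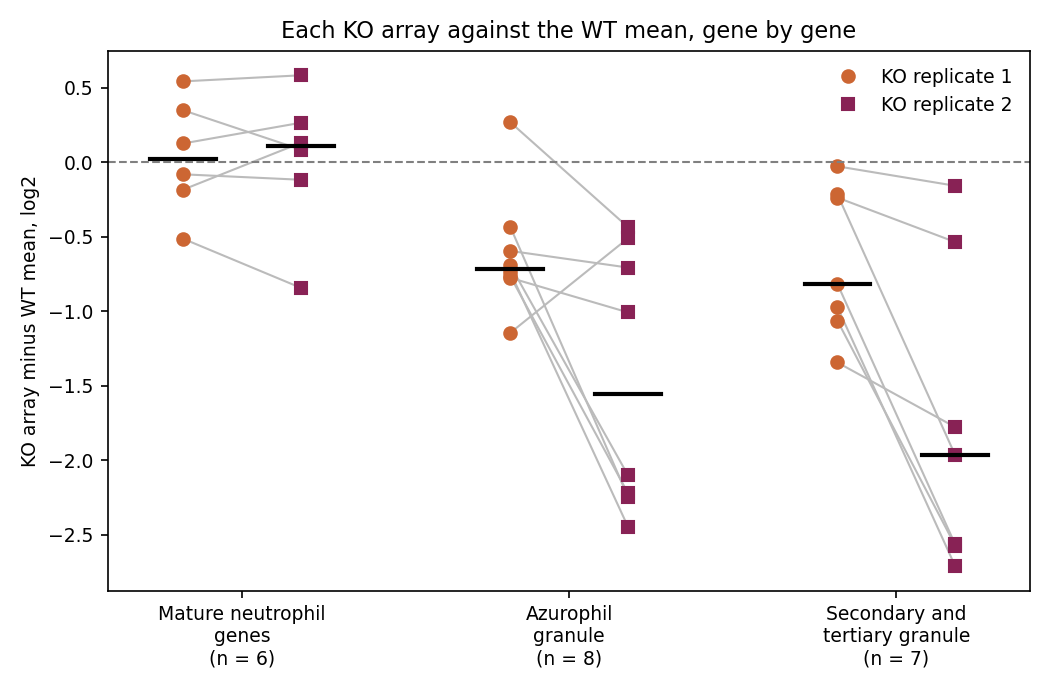
Each KO array minus the WT mean, in log2 (vertical axis), for the 6 tested late neutrophil genes and the tested genes of both granule lists. Circles are KO replicate 1, squares KO replicate 2, grey lines join 1 gene and black bars are medians, which lie at 0.02 and 0.11 for the late genes and at -0.71 and -1.55 for the azurophil granule.

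Some of these genes are shared with other myeloid cells, since Il1b, Fpr2 and Clec4d are also made by monocytes and macrophages. Of 10 monocyte markers, 4 were tested, 1 higher and 3 lower in mean, with a median of -0.31. Their summed linear level was 873 to 944 in WT and 804 to 837 in KO. For 2 of the 4, F13a1 and Cx3cr1, KO was lower without overlap, as for 1532 of the 8716 tested genes. Ccr2, Nr4a1 and Ms4a6c were not above background on any array. Of 10 red pulp macrophage markers, 9 were tested, 4 higher and 5 lower, with a median of -0.01. Their summed level was 26165 to 27991 in WT and 29014 to 33118 in KO. Among them Adgre1, which encodes an adhesion receptor used to mark macrophages, was higher on both KO arrays, at 9.06 and 9.16 against 8.45 and 8.12 (0.83 ± 0.18, log2, SE, limma adjusted p of 0.771). Spic, of the same list, was lower on both KO arrays, at 10.99 and 10.41 against 11.00 and 11.09 (-0.35 ± 0.23, limma adjusted p of 0.780). Fpr2 was higher on both KO arrays, and what part red pulp macrophages and monocytes have in that was not tested.

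Partner genes of each receptor were described next, and none of them passed the adjusted threshold. Of the G-CSF pathway, 7 of 9 genes were tested, with 3 higher and 4 lower means and a median of -0.01. Csf3, the ligand itself, was above background on 1 KO array by 1 of its 2 probes. Cebpb, a C/EBP factor of emergency granulopoiesis, gave 9.97 and 9.98 in WT and 10.33 and 10.47 in KO (0.42 ± 0.14). Cebpe, a C/EBP factor of granule formation, gave 5.75 and 6.21 in WT and 5.85 and 4.91 in KO (-0.60 ± 0.36), with overlapping groups. Cebpe was above background on 1 of the 2 KO arrays and entered the test only through WT, so that a lower KO mean was favoured by the filter. Stat5a, a transducer of cytokine signals, gave 6.55 and 6.85 in WT and 6.29 and 6.14 in KO (-0.48 ± 0.17). The values of Cebpb thus lay higher and those of Stat5a lower on both KO arrays.

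For CXCR2, 9 of 13 ligands and trafficking genes were tested, 3 higher and 6 lower, with a median of -0.07. The ligands Cxcl2, Cxcl3 and Cxcl5 were not above background on any array, whereas Cxcl1 was above it on all. Cxcl1 gave 5.89 and 5.36 in WT and 6.05 and 5.44 in KO (0.12 ± 0.29), with overlapping groups. Ppbp, a CXCR2 ligand precursor stored in platelets, gave 10.41 and 10.87 in WT and 9.99 and 10.14 in KO (-0.58 ± 0.20), lower on both KO arrays. Gnai2, the G protein subunit that couples chemokine receptors, gave 11.27 and 11.34 in WT and 11.59 and 11.50 in KO (0.24 ± 0.14). Cxcr4, which holds neutrophils in marrow, gave 9.48 and 9.13 in WT and 8.69 and 9.33 in KO (-0.30 ± 0.27), so that its groups overlapped.

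In the IL-1 system, 10 of 14 genes were tested and 9 had higher means in KO, with a median of 0.15, beside 4421 higher and 4294 lower among all tested genes. The groups did not overlap, with KO higher, for 2 of the 10, as for 1795 of the 8716 tested genes. Il1a, the other IL-1 agonist, gave 5.90 and 5.83 in WT and 6.20 and 6.14 in KO (0.31 ± 0.14, adjusted p of 0.771 by limma). Gsdmd, the pore protein through which interleukin-1β leaves the cell, gave 8.94 and 9.28 in WT and 9.34 and 9.68 in KO (0.40 ± 0.20). Pycard, the inflammasome adaptor, was at 0.27 ± 0.20, with overlapping groups. Nlrp3 was not above background on any array, and Il1r1, the signalling receptor, was seen on 1 WT array by 1 of its 2 probes.

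Of the TREM and C-type lectin partners, 14 of 17 were tested, 5 higher and 9 lower, with a median of -0.16, and 6 were lower with groups that did not overlap, as were 1532 of the 8716 tested genes. Tyrobp, the DAP12 adaptor of TREM-1, gave 9.72 and 9.81 in WT and 9.03 and 9.45 in KO (-0.52 ± 0.19). Fcer1g, the adaptor through which the CLEC4D partner Mincle signals, gave 11.11 and 11.77 in WT and 10.99 and 10.80 in KO (-0.54 ± 0.26). Treml2, a TREM-like receptor, gave 5.42 and 5.39 in WT and 4.88 and 5.07 in KO (-0.43 ± 0.15) and was above background on 1 of the 2 KO arrays, entering the test only through WT. All 3 had adjusted p of 0.771 by limma. Clec4e, which encodes Mincle, was at -0.28 ± 0.18, whereas Clec4n, which encodes dectin-2, was at -0.03 ± 0.20. These adaptors are not specific to neutrophils, being used by macrophages and natural killer cells too.

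The other stefin and resistin-like genes were mostly dark. Stfa1, Stfa2 and Stfa3, the cystatin-type protease inhibitors related to the unmeasured Stfa2l1, were not above background on any array, and neither were Retn and Retnlb. Cstb, a stefin made in most cells, was at 0.02 ± 0.14. Retnla, the alternatively activated macrophage product, was above background on the KO arrays only, at 4.99 and 5.08 against 4.63 and 4.79, and thus entered the test through KO. Of the relatives and ligands of the FPR receptors, 1 of 11 was tested, the leukotriene B4 receptor gene Ltb4r1, at 6.19 and 6.46 in WT and 6.23 and 5.69 in KO (-0.36 ± 0.23). Fpr-rs6, Anxa1 and C5ar1 were not above background on any array.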

How the data were processed

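Total RNA from 2 WT and 2 KO spleens, biological duplicates per the series' design text, was measured on 4 arrays. The deposited signals are probe intensity values on a linear scale, exported by the authors from Illumina GenomeStudio without normalization. The deposited detection columns are a fraction that rises with the signal and were read as 1 minus the detection p-value. A second deposited table holds processed values on the log2 scale, quantile normalized as they show. Its column medians were 6.82 on each array, and no source used here states its scale or centring.

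Signals were corrected with normexp (negative controls inferred from the detection p, offset 16), then quantile normalized and log2 transformed by neqc (limma 3.58.1, R 4.3.3). Probes detected (p under 0.05) on both arrays of either group went into lmFit and eBayes. The fit had 2 residual degrees of freedom, or 5.04 with the prior, and p-values were adjusted by Benjamini-Hochberg over all 12493 such probes with a threshold of 0.05. The study's methods name a 2-group test with no further setting. A test by exact permutation of 2 against 2 cannot give a p under 0.333 and was not used. A fold is 2 to the power of the log2 difference, and summed levels are sums of linear normalized intensity over the tested genes of a list. Symbols came from the platform annotation, in which 23978 probes had 1 symbol, 0 had several and 1719 were unnamed here. Gene identifiers of 23962 probes matched RefSeq (GRCm38.p6), which changed 0 symbols and gave the coordinates, since the files name no build. The members and gene lists were chosen with earlier results of these data known, so that the fits describe these genes and do not test the choice of them. Every probe of a member is named, with up to 3 genes of each partner list by smallest p, other genes being named after their values were seen. The alternatives were no background correction, an offset of 50, median scaling, no filter on dim probes, the authors' value table, a stricter filter (all arrays at a detection p under 0.01), a prior with trend and robust options, a replicate block, averaging the probes of each gene, and each array left out. No source used here names slides or scans. Batches were therefore not tested, and the number of arrays limits the precision.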

Additional observations from a re-analysis of the deposited data

How the results depend on the processing

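No member probe passed the adjusted threshold in any of 12 alternative fits, which together gave 106 values for the member probes. In the fits that kept all 4 arrays, the smallest limma adjusted p was 0.585. Retnlg stayed lower and Fpr2, Il1b and the dim Csf3r probes 3 and 4 stayed higher in each that tested them. For several of these fits that sign was fixed in advance. No filter, the stricter filter, the replicate block and the trend and robust prior keep the main values, so only the p-value can change. The authors' value table gave nearly the same differences as no background correction, -0.577 for Retnlg in both. Probes 3 and 4 did not pass the stricter detection filter and have no value there. Cxcr2 turned to 0.029 with median scaling. With each array left out in turn, 4 probes changed sign, with ranges of -0.183 to 0.132 for Cxcr2, -0.392 to 0.197 for Clec4d, -0.061 to 0.455 for Csf3r probe 1 and -0.171 to 0.679 for Csf3r probe 2. The median of the 6 genes ran from -0.097 (without WT replicate 2) to 0.312 (without WT replicate 1), and from 0.052 to 0.140 otherwise. Over all probes, 2 passed. With the authors' value table, no background correction, no filter or the replicate block 0 passed, with an offset of 50 4 passed, and with a trend and robust prior 8. With an array left out, 0 to 16 passed, 16 without WT replicate 1. Such a fit leaves 1 sample in a group and assumes that it varies like the other group. The cause was not tested. The labels share replicate numbers but name no pairs, and the same-numbered arrays deviated together at r = 0.19 across probes. Background limits the dim probes of Csf3r, Il1r2 and Trem1.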
